A study of Mus musculus with 22 samples.

Results

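Asf1a, Asf1b, Chaf1a, Chaf1b, Hells, Uhrf1, Dnmt1, Ezh2, Suv39h1 and Atad2 encode factors that rebuild chromatin and copy DNA and histone methylation behind the replication fork. They were taken by gene symbol from the deposited table of normalized counts, where all 10 were present among 11208 genes. The values come from polyadenylated RNA of NIH/3T3 cells, an established mouse embryo fibroblast line, with a stably integrated doxycycline-inducible construct for E2F1 (E2F1 line) or an empty vector (EV line). E2F1 is a transcription factor that drives genes of the G1 to S transition. All cells were starved for 48 h in 0.25% serum to bring them into a resting, G0-like state. The E2F1 line was then sampled at 0, 2, 6 and 12 h of 500 ng/ml doxycycline, while the EV line was taken at those times under the same drug, or after 2, 6 and 12 h in 10% serum. That makes 11 groups of 2 libraries, 22 in all, and the starved EV libraries at 0 h serve both EV series. The labels do not say whether a line is a clone or whether the replicates are separate cultures, so p-values measure only the spread between these libraries, which may be technical.

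New DNA is wrapped by handing histones H3 and H4 from the chaperone ASF1 to the CAF-1 complex, which is tethered to the replication clamp. UHRF1 recognises DNA that carries methylation on the parental strand only and brings in the maintenance methyltransferase DNMT1, while HELLS opens nucleosomal DNA for it. EZH2 and SUV39H1 write the repressive methyl marks on lysine 27 and lysine 9 of histone H3, and ATAD2 binds acetylated histones on new chromatin. In cells that leave the resting state, several of these genes are textbook E2F targets that are expressed around S phase.

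Because the study turns on E2F1, the stretches of the promoters that hold an E2F-type word are shown first. RefSeq windows (build GRCm38.p6) of 300 bases, 250 before and 50 after an annotated start, were given for 9 of the 10 genes, 13 windows in all, with no entry for Atad2. The words searched on both strands were TTTCCCGC, TTTCGCGC, TTTGCCGC and TTTGGCGC, and the overlapping core TTCCCGCC, which was added after the windows had been read. Each stretch is 30 bases on the strand of the gene, with the word, or its reverse complement, in capitals.
Chaf1a, chr17:56040358-56040387 (+): ggttgccgcggTTCCCGCCaaatacgagcg
Hells, chr19:38930917-38930946 (+): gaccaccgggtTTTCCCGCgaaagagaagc
Uhrf1, first start, chr17:56303278-56303307 (+): tgctttctcgcTTCCCGCCacagcgccagc
Uhrf1, second start, chr17:56304117-56304146 (+): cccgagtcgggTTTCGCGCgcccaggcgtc
Dnmt1, upstream word, chr9:20952824-20952853 (-): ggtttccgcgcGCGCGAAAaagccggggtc
Dnmt1, downstream word, chr9:20952574-20952603 (-): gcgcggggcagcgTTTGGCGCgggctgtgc
Ezh2, chr6:47595009-47595038 (-): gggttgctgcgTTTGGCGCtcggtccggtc
Suv39h1, chrX:8074407-8074436 (-): ggaaggccggcGCGGCAAAcgtgggggccg

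One of the 4 words stood in a window of 5 of the 9 genes (Hells, Uhrf1, Dnmt1, Ezh2 and Suv39h1), against 2.6% of 27025 genes, 2.26% of their 32851 promoter windows of the same length and 4.29% of the windows with at least 60% GC. The core was found in Chaf1a and Uhrf1, against 2.52% of genes and 2.19% of windows. One or the other was in 6 of the 9, against 4.46% of genes, 3.89% of all windows and 7.89% of windows with at least 60% GC. The members' windows ran from 51.3% to 71% GC, and 9 of the 13 had at least 60%. Counted from the annotated start of its window, the word began at position -47 in Chaf1a, -62 in Hells and 4 in Ezh2. Windows are numbered here along the gene. In Uhrf1 the word began at -48 in window 1 and at -185 in window 2. The words of Dnmt1 were in window 3, at -219 and 34, and that of Suv39h1 in window 2, at -64. Windows 1 and 2 of Dnmt1 and window 1 of Suv39h1 held none. The stretches of Hells, Dnmt1 and Ezh2 fall within exons annotated for those genes in GENCODE M21, and the others within no annotated exon. Asf1a, Asf1b and Chaf1b held none of these letters in their windows. CCAAT was found in 7 of the 9 genes (41.06% of all genes, 37.41% of windows), GGGCGG in 8 (38.2% of genes, 35.66% of windows) and TTTGAA in 2 (20.23% of genes, 17.89% of windows). For these words no share among windows with at least 60% GC was computed, which matters most for GGGCGG, a word of G and C only. A match of letters is a description of the window, and binding was not measured here.

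The libraries totalled 34014608 to 46057140 normalized counts with medians of 1242.5 to 1434.5 per gene. All 9 fibroblast markers looked for were in the table, with a summed level of 670874 to 1387316 and a median of 1101007. None of 4 epithelial and none of 3 endothelial markers was in it, and 1 of 4 immune markers was, Csf1r, at 33 to 735. E2f1, the targeted gene, read 1703 and 1637 normalized counts at 0 h in the E2F1 line, 1535 and 1755 at 2 h, 3806 and 3602 at 6 h and 2683 and 2845 at 12 h. Its rise is thus seen at 6 h and 12 h but not at 2 h, and whether the construct's transcript is counted under the mouse gene is not stated. In the EV line E2f1 read 1635 and 1655 at 0 h and 4615 and 4247 after 12 h of serum.

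Some libraries stood apart from their line. Ddx3y, a Y-linked RNA helicase gene, lay between 316 and 580 in every E2F1-line library and at 9 and 4 in the EV line at 0 h. Within the E2F1 line it read 580 and 521 at 0 h and 329 and 316 at 2 h. Both 2 h libraries were lower, a difference that limma did not call (log2 -0.77, adjusted p 0.4). In the EV line at 2 h it read 103 and 71 under doxycycline and 132 and 170 under serum. At 6 h it read 31 and 18 under doxycycline and 48 and 35 under serum, and at 12 h 9 and 4 under doxycycline and 29 and 19 under serum. Against the EV line at 0 h, limma called Ddx3y higher at 2 h of doxycycline (log2 3.61, adjusted p 7.97e-05) and at 2 h (4.42, adjusted p 1.71e-08), 6 h (2.57, adjusted p 2.01e-05) and 12 h of serum (1.79, adjusted p 0.000815). Whether these EV libraries hold some RNA of the E2F1 line was not tested. It limits what their values mean, most at 2 h, and those groups have no other libraries. The starved EV libraries also differed between themselves in the genes described here. Replicate 2 was above replicate 1 for all 10 genes, with ratios from 1.08 (Asf1a) to 2.19 (Chaf1b) and a median of 1.60, while the median over all genes was 1.01. No other group had a median ratio for the 10 genes outside 0.868 to 1.33. Every change of the EV line is measured from those 2 libraries.

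**Figure D1:**
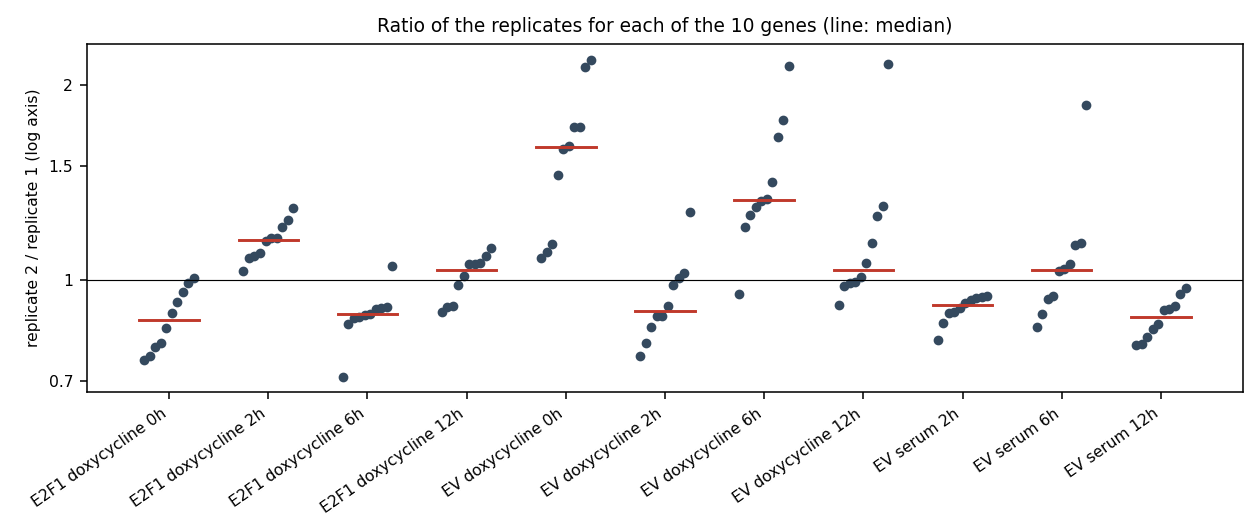
Ratio of replicate 2 to replicate 1 (log axis) for each of the 10 genes in each of the 11 groups, with the median as a line. In the starved EV libraries all 10 points lie above 1, with a median of 1.60.

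Induced E2F1 was followed by higher RNA of all 10 genes. Against the starved E2F1 line, limma on log2(normalized count + 1) with Benjamini-Hochberg adjustment at 0.05 called 10 of 10 higher at 6 h, where it called 28.8% of all genes higher. At 12 h it called 10 of 10 higher, against 31.8% of all genes. A rise of at least 2-fold was called for 8 of the 10 at 6 h (8.64% of all genes) and for 9 at 12 h (10.6%). The median log2 change of the 10 genes was 1.62 at 6 h and 1.81 at 12 h, while the median over all genes was -0.03 and -0.02. In bulk RNA, more cells that express a gene and more RNA per cell cannot be told apart.

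**Figure D2:**
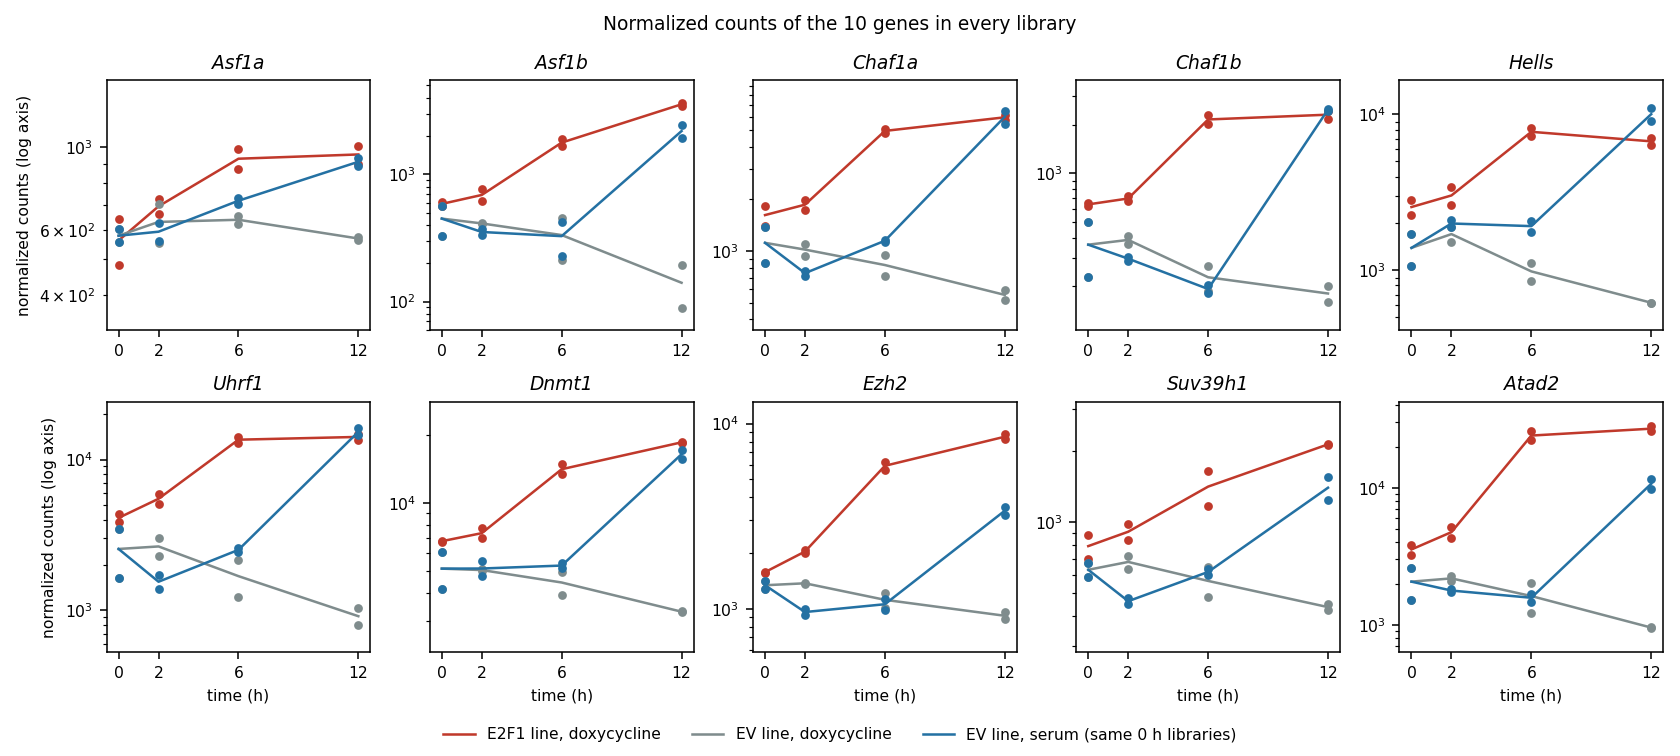
Normalized counts (log axis) of each gene against time in hours, with a point for each library and a line through the group means; the EV serum and EV doxycycline lines start from the same 0 h libraries. On this axis the E2F1 line has its largest step between 2 h and 6 h, except for Suv39h1, which rises about as much after 6 h. The serum series has its largest step between 6 h and 12 h, by little for Asf1a. The EV doxycycline series ends below its 0 h mean for all 10, by little for Asf1a.

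The histone chaperones Asf1a and Asf1b differed in scale. Identifiers and positions are those of GENCODE M21 on GRCm38 (mm10). Asf1a (ENSMUSG00000019857.7, chr10:53596757-53609225), the paralog that also serves chromatin assembly outside S phase, read 640 and 482 normalized counts at 0 h, 988 and 875 at 6 h and 1010 and 903 at 12 h in the E2F1 line. Both libraries of each later time were above both at 0 h, and the fold was 1.67 at 6 h (log2 0.74, SE 0.14, adjusted p 0.000247) and 1.72 at 12 h. Across all 11 groups the highest mean of Asf1a was only 1.70 times the lowest. Asf1b (ENSMUSG00000005470.8, chr8:83955507-83970197), the paralog of proliferating cells, read 608 and 562 at 0 h, 1880 and 1668 at 6 h and 3442 and 3653 at 12 h. It kept climbing after 6 h, from a log2 change of 1.60 (SE 0.35, adjusted p 0.000999) to 2.60 (adjusted p 4.55e-06). Asf1b lost the call of its step from 6 h to 12 h when any single library of either time was left out (log2 0.915 to 1.088). Its highest group mean was 25.2 times its lowest. Reads of Asf1a share exons with Mcm9 on the opposite strand, and strand use in the counting is not stated, so its values are uncertain to that extent.

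The large and middle subunits of CAF-1 moved side by side. Chaf1a (ENSMUSG00000002835.9, chr17:56040439-56072289), the subunit that binds the replication clamp, read 1826 and 1398 at 0 h, 4839 and 5085 at 6 h and 5763 and 6140 at 12 h, with no overlap between 0 h and either later time. Its log2 change was 1.63 at 6 h (SE 0.18, adjusted p 5.94e-07) and 1.90 at 12 h. Chaf1b (ENSMUSG00000022945.12, chr16:93883901-93906115), which binds ASF1, read 656 and 630, then 2302 and 2013, then 2177 and 2443, again with separate groups. Its log2 change was 1.74 at 6 h (SE 0.24, adjusted p 1.01e-05) and 1.84 at 12 h. For both genes the step from 6 h to 12 h was small against its error, 0.26 ± 0.18 for Chaf1a and 0.10 ± 0.24 for Chaf1b (log2, SE). Chaf1a shares exons with Ubxn6.

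Of the maintenance methylation genes, Uhrf1 and Hells reached their E2F1 level by 6 h, while the mean of Dnmt1 was higher again at 12 h. Uhrf1 (ENSMUSG00000001228.14, chr17:56303321-56323486) read 4343 and 3874 at 0 h, 14207 and 12874 at 6 h and 13508 and 14744 at 12 h. Its fold was 3.30 at 6 h (log2 1.72, SE 0.27, adjusted p 3.05e-05) and 3.44 at 12 h, and every later library of the 2 times lay above both at 0 h. Hells (ENSMUSG00000025001.11, chr19:38930915-38971051) read 2833 and 2265, then 8240 and 7245, then 7050 and 6402. It was the only one of the 10 whose mean was lower at 12 h than at 6 h, by a log2 difference of -0.20 that did not pass the test (adjusted p 0.432). Dnmt1 (ENSMUSG00000004099.16, chr9:20907209-20959888) read 6748 and 6794, then 14833 and 13420, then 18444 and 18737. Its log2 change was 1.06 at 6 h (SE 0.13, adjusted p 2.73e-06) and 1.46 at 12 h, and the step between them, 0.40, was called (adjusted p 0.0263). Dnmt1 lost that call without E2F1 6 h replicate 2 (log2 0.326), E2F1 12 h replicate 1 (0.409) or E2F1 12 h replicate 2 (0.387).

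The histone methyltransferase genes rose by 6 h and again by 12 h, and Atad2 had the largest change of the 10 at 6 h. Ezh2 (ENSMUSG00000029687.16, chr6:47530139-47595341), the catalytic subunit of Polycomb complex PRC2, read 1585 and 1569 at 0 h, 6192 and 5639 at 6 h and 8254 and 8732 at 12 h. Its log2 change was 1.91 at 6 h (SE 0.10, adjusted p 5.71e-11) and 2.43 at 12 h, with a called step of 0.52 between (adjusted p 0.000713). Suv39h1 (ENSMUSG00000039231.18, chrX:8061171-8074760), which methylates H3 lysine 9 at pericentromeric heterochromatin, read 886 and 698, then 1652 and 1174, then 2148 and 2115. Its 6 h libraries were the most scattered of that group, with replicate 2 at 0.711 of replicate 1, and its log2 change went from 0.82 (SE 0.17, adjusted p 0.000562) to 1.44 (adjusted p 9.18e-07). The call of its step from 6 h to 12 h was lost without E2F1 6 h replicate 2 (log2 0.367). Atad2 (ENSMUSG00000022360.8, chr15:58094044-58135082), an AAA ATPase with a bromodomain, read 3844 and 3248, then 25924 and 22213, then 28277 and 25790. That is a 6.79-fold rise by 6 h (log2 2.76, SE 0.21, adjusted p 4.89e-09) and a 7.64-fold rise by 12 h. Ezh2 shares exons with Gm26625 and Suv39h1 with Gm14820, both on the opposite strand.

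**Figure D3:**
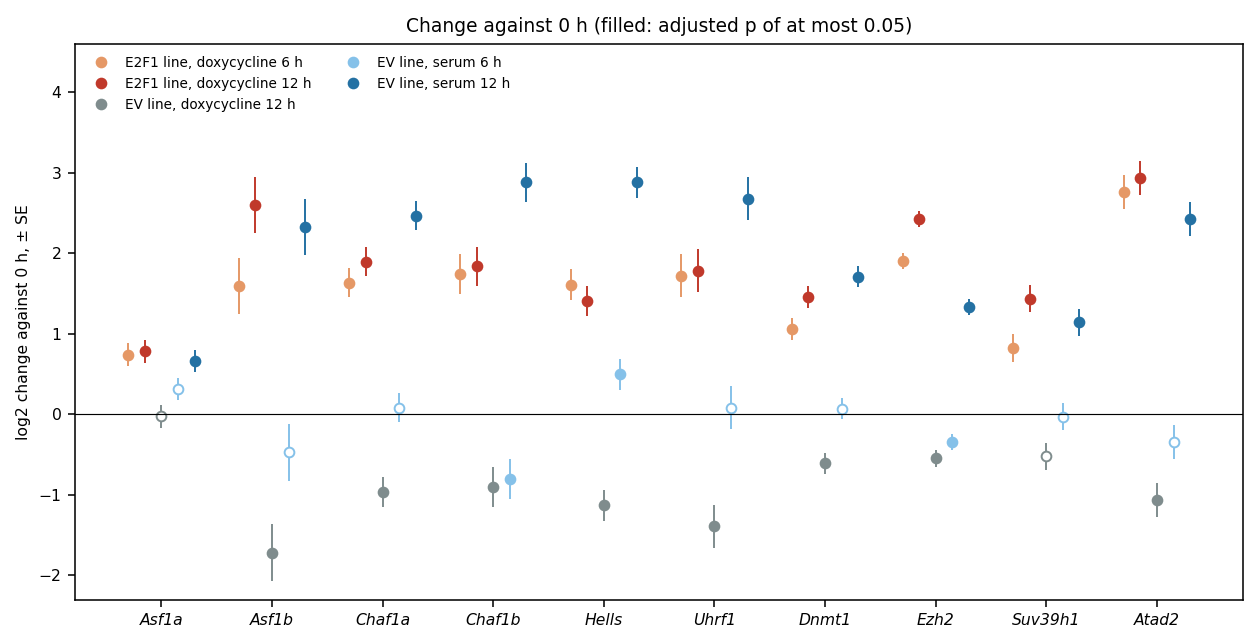
Log2 change against the 0 h libraries of the same line, with the standard error of the fit, for each gene in 5 comparisons; filled points passed an adjusted p of 0.05. E2F1 raises all 10 at 6 h and 12 h, serum raises all 10 at 12 h, and the EV doxycycline points at 12 h lie at or under 0.

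From 6 h to 12 h of doxycycline in the E2F1 line, 4 of the 10 genes rose further (Asf1b, Dnmt1, Ezh2 and Suv39h1), against 15.1% of all genes higher in that comparison. Leaving out E2F1 6 h replicate 2 reduced the 4 to 1, and leaving out either 12 h library reduced them to 2. At 2 h none of the 10 had been called, where 1.86% of all genes were, and 2 (Asf1a and Ezh2) had an unadjusted p under 0.05. Ezh2 came nearest at 2 h, with 2005 and 2069 against 1585 and 1569 at 0 h, 0.37 ± 0.10 on the log2 scale (SE) with an adjusted p of 0.0697. With a fit of those groups alone, Uhrf1 (adjusted p 0.0151), Ezh2 (0.0255) and Atad2 (0.0309) passed at 2 h. That fit called 5.32% of all genes, and 2.63% of all genes higher. The log2 changes of the 10 at 2 h were all above 0, between 0.12 and 0.42. Their median was 0.235, against 0.015 over all genes. In the EV line at 2 h of doxycycline they ran from -0.094 to 0.323, with a median of 0.112. Hells (0.323 against 0.244) and Chaf1b (0.202 against 0.121) changed more there than in the E2F1 line.

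The EV line given doxycycline went through the drug and further time in low serum without induced E2F1. Drug and time cannot be told apart, since no EV group was kept in low serum without the drug after 0 h. None of the 10 genes was called there at 2 h (7.35% of all genes called, 0 members at an unadjusted p under 0.05) or at 6 h (0.134% of all genes, 4 members at an unadjusted p under 0.05). At 12 h limma called 8 of the 10 lower, against 3.42% of all genes lower. Asf1b read 329 and 568 at 0 h and 89 and 192 at 12 h (log2 -1.72, SE 0.35, adjusted p 0.00905). Uhrf1 read 1631 and 3481 at 0 h and 796 and 1037 at 12 h (log2 -1.39, SE 0.27, adjusted p 0.00607). Both 12 h libraries were below both 0 h libraries in each case, but the 0 h libraries were themselves far apart. Hells fell from 1074 and 1715 to 622 and 618 (log2 -1.13, adjusted p 0.00319), and Atad2 from 1514 and 2613 to 958 and 948 (log2 -1.06, adjusted p 0.00783). Chaf1a, Chaf1b, Dnmt1 and Ezh2 changed by -0.97, -0.90, -0.61 and -0.55 on the log2 scale. Asf1a (-0.02, adjusted p 0.954) and Suv39h1 (-0.52, adjusted p 0.0989) did not pass. These 8 calls rest on EV 0 h replicate 2: without it none remained, without EV doxycycline 12 h replicate 1 there were 2, and a fit restricted to those groups gave none.

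Set against the EV line, the E2F1 line's change was larger for every one of the 10 genes at 6 h and at 12 h. This difference of changes was called higher for 10 of 10 at 6 h, where 22.2% of all genes were, and for 10 of 10 at 12 h (27.3%). At 2 h none of the 10 was called (0.143% of all genes), with 1, Ezh2, at an unadjusted p under 0.05. The 12 h difference of log2 changes was 4.32 for Asf1b (SE 0.50, adjusted p 1.19e-06), 3.99 for Atad2 (SE 0.30, adjusted p 1.1e-08) and 3.17 for Uhrf1 (SE 0.37, adjusted p 1.63e-06). The smallest was that of Asf1a, 0.60 at 6 h (SE 0.20, adjusted p 0.0251) and 0.81 at 12 h (adjusted p 0.00238). The 6 h value of Asf1a lost its call with libraries scaled to equal totals (adjusted p 0.0518), with a fit of the groups compared alone (0.0557) and without any of 4 libraries, E2F1 0 h replicate 2, E2F1 6 h replicate 1, EV 0 h replicate 2 and EV 6 h replicate 2. The lines already differed before induction: 5 of the 10 (Chaf1a, Chaf1b, Hells, Dnmt1 and Atad2) were called higher in the starved E2F1 line, against 8.86% of all genes. Chaf1b read 656 and 630 there and 227 and 497 in the starved EV line (log2 difference 0.93, SE 0.24, adjusted p 0.0152). Those 5 calls became 0 without EV 0 h replicate 1 or without E2F1 0 h replicate 1, and 3 without E2F1 0 h replicate 2.

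Serum raised the same 10 genes, but late. After 12 h limma called 10 of 10 higher than in the starved EV line (36% of all genes higher), 9 of them by at least 2-fold (10.3%). Chaf1b read 227 and 497 at 0 h, 204 and 181 at 6 h and 2515 and 2449 at 12 h, a 7.37-fold rise over 0 h (log2 2.88, SE 0.24, adjusted p 1.29e-08). Hells read 1074 and 1715, then 2082 and 1763, then 11054 and 9049 (log2 2.88 at 12 h, adjusted p 7.14e-10). Uhrf1 read 1631 and 3481, then 2606 and 2437, then 16072 and 14462 (log2 2.68, adjusted p 9.32e-08). For each of these genes the 12 h libraries stood above every earlier library of the serum series. Asf1a had the smallest rise, from 555 and 601 to 936 and 892 (log2 0.66, SE 0.14, adjusted p 0.000446). Against the EV line kept in doxycycline for the same 12 h, serum was higher for 10 of 10 (37.9% of all genes), with a median log2 difference of 3.46.

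Before 12 h the calls under serum were mixed in direction. At 2 h Hells was called higher, 1 of 10 against 37.5% of all genes, and Chaf1a, Uhrf1, Ezh2 and Suv39h1 were called lower, 4 of 10 against 33.5%. Ezh2 read 999 and 921 at 2 h against 1272 and 1407 at 0 h, both libraries lower (log2 -0.48, SE 0.10, adjusted p 0.000331). At 6 h Hells was called higher (1 of 10 against 36.5% of all genes), and Chaf1b and Ezh2 lower (2 of 10 against 31%). These shares are under those of all genes, apart from the lower calls at 2 h, which are near theirs. With libraries scaled to equal totals, the 2 h calls became 0 higher and 8 lower, against 23.3% and 52.7% of all genes, so the share of lower calls lay above that of all genes. These early calls also changed with single libraries. Without EV 0 h replicate 2 the lower calls went to 1 at 2 h and 0 at 6 h, and the higher calls to 2 and 4. Without EV 0 h replicate 1 the higher calls went to 0 at both times, as they did at 2 h without serum 2 h replicate 1 and at 6 h without serum 6 h replicate 1. Without serum 2 h replicate 2 the lower calls at 2 h went to 1, and without serum 6 h replicate 1 those at 6 h went to 1. From 6 h to 12 h of serum 9 of the 10 rose, against 19.3% of all genes, and Asf1a did not pass (log2 0.35, SE 0.14, adjusted p 0.0558).

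The E2F1 line under doxycycline and the EV line under serum differed in their timing in these genes. Serum was given only to the EV line, so line and stimulus cannot be told apart in this comparison. Of the difference in mean normalized counts between 0 h and 12 h, the E2F1 line had a median of 82.3% at 6 h, from 40.1% for Asf1b to 124% for Hells. In the serum series the median at 6 h was -0.98%, from -13.8% for Ezh2 to 41.7% for Asf1a. The difference between the 6 h changes, E2F1 line minus serum, was called higher for 9 of the 10 genes (30.3% of all genes). It was 3.10 for Atad2 (SE 0.30, adjusted p 8.71e-08), 2.55 for Chaf1b (adjusted p 5.32e-06) and 2.25 for Ezh2 (adjusted p 6.82e-10). Asf1a, at 0.43 (SE 0.20, adjusted p 0.0715), did not pass.

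At 12 h the changes in the E2F1 line and under serum were closer, and 3 of the 10 differed, against 48.8% of all genes. Line and stimulus are confounded here as well. Ezh2 rose more under E2F1, by a difference of log2 changes of 1.09 (SE 0.14, adjusted p 6.28e-06), and was the only one called higher, where 25% of all genes were. Hells (-1.47, SE 0.27, adjusted p 0.000201) and Chaf1b (-1.04, SE 0.34, adjusted p 0.018) rose less, 2 of 10 against 23.8% of all genes. The share of higher calls is under that of all genes, and the share of lower calls is near it. The remaining 7 did not pass, with differences from -0.90 (Uhrf1, SE 0.37, adjusted p 0.056) to 0.51 (Atad2, SE 0.30, adjusted p 0.165). The starved EV libraries shape these numbers. Without EV 0 h replicate 2, the lower calls were 5 (Chaf1a, Uhrf1 and Dnmt1 joined), and without EV 0 h replicate 1 they were 1, Hells, with Atad2 joining Ezh2 among the higher. Without E2F1 12 h replicate 1 the lower calls were also 1. Compared as levels, with the 0 h libraries left out (an alternative chosen after the data had been seen), the 12 h E2F1 line was above 12 h serum for Ezh2 by 1.33 (8254 and 8732 against 3553 and 3214), Atad2 by 1.34 (28277 and 25790 against 11527 and 9872) and Suv39h1 by 0.62. Hells stood lower in the E2F1 line by -0.57 (adjusted p 0.0134), and Chaf1b, at -0.11 (adjusted p 0.722), no longer passed. In this comparison of levels 3739 of all 11208 genes were called higher and 3402 lower. The 3 higher and 1 lower of the 10 thus do not set these genes apart. The level of Chaf1a differed by -0.005 ± 0.181 (log2, SE).

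**Figure D4:**
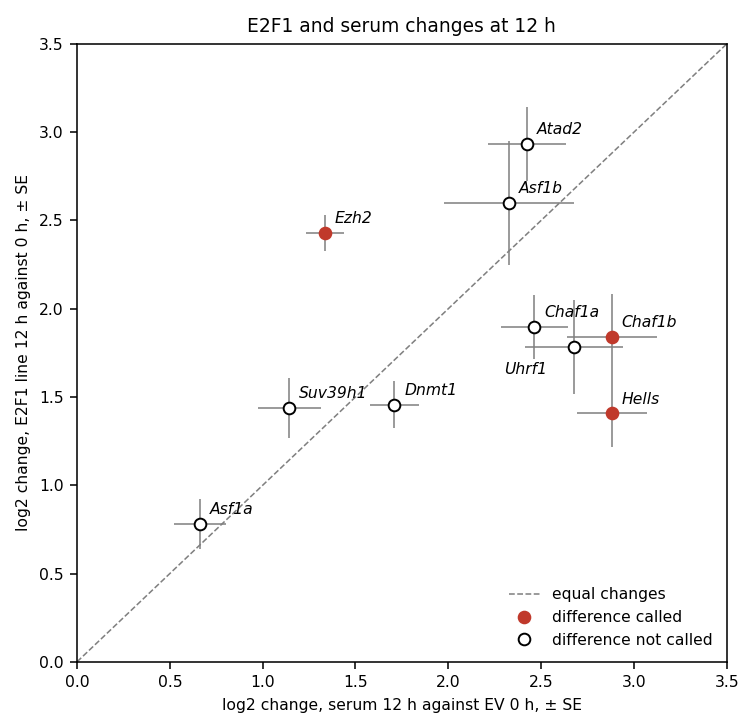
Log2 change at 12 h in the E2F1 line (vertical) against that under serum (horizontal) for each gene, with standard errors; filled points mark a called difference between the changes and the dashed line equal changes. Ezh2 lies above the line, and Hells and Chaf1b below it.

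Compared as levels per kilobase of annotated exon, the starved E2F1 line held most Uhrf1 (965 normalized counts per kb) and Dnmt1 (918) and least Suv39h1 (150.3) and Chaf1b (137). Hells (354), Asf1b (250.2), Ezh2 (236), Atad2 (221), Chaf1a (182) and Asf1a (154) lay between. After 12 h of E2F1 the order was Uhrf1 (3317), Dnmt1 (2520), Atad2 (1687), Asf1b (1517), Ezh2 (1272), Hells (934), Chaf1a (672), Chaf1b (493), Suv39h1 (404) and Asf1a (263). Atad2 thus moved from the sixth place to the third, Asf1a fell to the last, and the difference between the most and the least abundant of the 10 widened. These orders use the union of annotated exons, and which transcripts the cells use was not measured.

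Within each gene, the order of the 11 groups was much the same. The EV line at 12 h of doxycycline had the lowest mean for 9 of the 10, and for Asf1a the starved E2F1 line did. The highest mean was that of the E2F1 line at 12 h for Asf1a, Asf1b, Dnmt1, Ezh2, Suv39h1 and Atad2, and of serum at 12 h for Chaf1a, Chaf1b, Hells and Uhrf1. The ratio of highest to lowest group mean was 28.4 for Atad2, 16.7 for Uhrf1, 16.2 for Hells, 13.8 for Chaf1b, 10.8 for Chaf1a, 9.27 for Ezh2, 5.64 for Dnmt1 and 4.87 for Suv39h1. Between neighbours in that order the libraries overlapped in 3 (Dnmt1) to 8 (Asf1a) of 10 steps, mostly among the starved, EV doxycycline and early serum groups. For Chaf1a and Uhrf1 the 12 h E2F1 and 12 h serum libraries overlapped as well. So did those of Asf1a (1010 and 903 against 936 and 892), whose groups are not neighbours in its order.

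Each gene's profile over the 11 group means was correlated with the median profile of the other 9, as a description over groups that share a line, a scaling and their 0 h libraries. Pearson's r ran from 0.90 for Asf1a and 0.94 for Ezh2 to 0.99 for Dnmt1 and Chaf1a. Outside the 10 genes and their listed partners, the genes most like the median profile were Enkd1 (r = 0.996), Wdhd1 (0.990), Atad5 (0.989), Clspn (0.988) and Fignl1 (0.988), over the same 11 groups.

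Of 62 partner genes of the same pathways, 60 were in the table (Phf19 and Epop were not). Doxycycline in the E2F1 line gave 41 higher and 9 lower after 6 h, then 40 and 8 after 12 h. Of all genes, 28.8% were higher and 22.9% lower after 6 h, and 31.8% and 29.7% after 12 h. Serum gave 29 higher and 18 lower at 12 h, against 36% and 29.7% of all genes, so the lower share was near that of all genes. The EV line under doxycycline gave 0 higher and 5 lower (0.749% and 3.42% of all genes). The partners' median log2 change was 0.48 at 12 h of E2F1 and 0.20 at 12 h of serum, below the 1.81 and 2.37 of the 10 genes. The lists were compiled with earlier results of these data known, and no test sets them against other genes.

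Among 18 other H3-H4 chaperones and assembly factors, E2F1 raised 14 and lowered 1 at 12 h, with a median log2 change of 1.08. Hjurp, the centromeric histone chaperone, went from a mean of 5471 to 21150.5 normalized counts (log2 1.95, SE 0.12, adjusted p 6.03e-10). Mms22l, which with TONSL binds new histones at damaged forks, rose by 1.82 under E2F1 (adjusted p 4.78e-09) and 2.18 under serum. Mcm2, a helicase subunit that also holds H3-H4, rose by 2.13 under serum at 12 h (adjusted p 6.72e-11). Hat1, which acetylates new H4, rose by 1.39 under E2F1 and 2.13 under serum. Of 16 DNA methylation genes, E2F1 raised 11 and lowered 1 at 12 h, and serum raised 5 and lowered 5, shares near those of all genes. Cdca7l rose by 2.18 (adjusted p 9.82e-08) and 1.87 (adjusted p 5.49e-07). Cdca7, which works with HELLS, rose by 1.27 at 6 h of E2F1 (adjusted p 4.22e-07), 0.48 at 12 h of E2F1 (adjusted p 0.00542) and 2.26 at 12 h of serum (adjusted p 2.81e-10). Dnmt3b, a de novo methyltransferase, rose 3.39-fold at 6 h of E2F1, from a mean of 132 to 449.5, and stood at 257.5 at 12 h (1.94-fold over 0 h, adjusted p 0.000367). Tet1, which oxidises methylcytosine, fell by 1.04 on the log2 scale under serum.

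The list around Ezh2 and PRC2 held 9 genes, among them the paralog Ezh1 and the demethylase genes Kdm6a and Kdm6b. At 12 h of E2F1, 4 were called higher and 4 lower, and at 12 h of serum 4 higher and 5 lower. So few genes do not set the list apart from the shares of all genes given above. The core PRC2 subunits Suz12 (log2 1.51, adjusted p 5.5e-10) and Eed (1.37, adjusted p 1.66e-09) rose under E2F1 at 12 h. Kdm6b, which removes the PRC2 mark, fell by 1.80 under E2F1 (adjusted p 5.78e-10) and by 1.48 under serum (adjusted p 4.18e-09) on the log2 scale. Under serum the accessory subunit Phf1 fell by 1.64 and the Ezh2 paralog Ezh1 by 1.20. Among 13 H3 lysine 9 and HP1 genes, 9 rose and 2 fell at 12 h of E2F1. Suv39h2, the paralog of Suv39h1, went from a mean of 238 to 835 (log2 1.81, SE 0.35, adjusted p 0.000188), and the HP1 gene Cbx5 rose by 1.53 (adjusted p 2.7e-10). The demethylase gene Kdm4b fell by 1.43 (adjusted p 9.64e-08). Among the acetyl-histone readers, Brd3 rose 3.14-fold at 12 h of E2F1. The Atad2 paralog Atad2b fell by 0.29 on the log2 scale under serum at 12 h (adjusted p 0.0414), a call that was lost without EV 0 h replicate 1, EV 0 h replicate 2 or serum 12 h replicate 2. Of the partners named, Cdca7l, Suz12, Phf1, Kdm6b, Suv39h2 and Brd3 have exons in common with another gene in the annotation, which leaves their counts uncertain, and Eed was not matched to the annotation by its identifier.

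**Figure D5:**
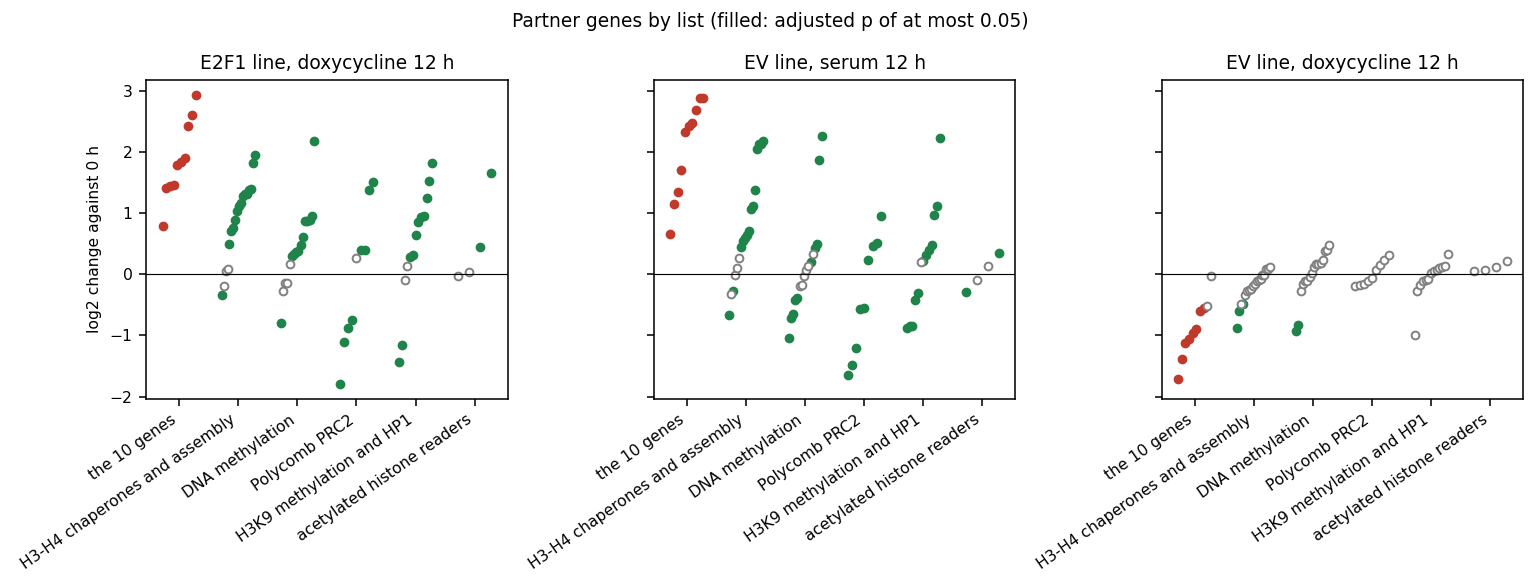
Log2 change against 0 h of the 10 genes and of 5 partner lists at 12 h of E2F1, serum and EV doxycycline; each point is a gene and filled points passed an adjusted p of 0.05. The 10 genes all lie above 0 under E2F1 and serum, while under both stimuli each list of partners, other than the readers under E2F1, holds called genes on both sides of 0.

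The authors' deposited tables of comparisons against 0 h hold only the larger changes, the smallest of them 2.00 in size on the log2 scale. Of the 10 genes, their table for the E2F1 line at 12 h lists Atad2 (2.94), Asf1b (2.61) and Ezh2 (2.44) among 510 genes. The authors' deposited table for the E2F1 line at 6 h lists Atad2 (2.80), 1 of 264 genes. The authors' deposited table for serum at 12 h lists 6 of the 10 among 726 genes, with Hells (2.91) and Chaf1b (2.90) at the top, followed by Uhrf1, Chaf1a, Atad2 and Asf1b. The other 6 of the authors' deposited tables list none of the 10.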

How the data were processed

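RNA from 22 libraries (11 groups of 2) was selected for poly(A) and sequenced with paired 150 bp reads, per the labels' protocols. The submitters' processing notes name FastQC, Trimmomatic, HISAT2, featureCounts, DESeq2 and the build mm10, without versions or roles; strand use is not given in the sources used here. The main file holds normalized counts that the authors rounded to whole numbers, so they were treated as a score on a count scale and not as raw counts; the scaling method is not given in the sources used here and reads per library were not recovered. The authors' deposited comparison tables hold log2 fold changes and adjusted p-values, and list only large changes. Here log2(value + 1) was fitted with limma 3.58.1 in R 4.3.3 (11 group means over all 22 libraries, 11 residual degrees of freedom, empirical Bayes with trend, two-sided) over all 11208 genes, none of which fell to the filter of at least 10 in at least 2 libraries. P-values were adjusted by Benjamini-Hochberg over all genes of each of 18 comparisons, at 0.05; fold changes are on the log2(value + 1) scale. Replicates differed by 2.72 to 4.28 times the counting noise of their values in the median gene. On simulated data for the E2F1 6 h comparison of 11208 genes, the fit recovered 84 of 100 genes changed by 1 and 99 of 100 changed by 2 (log2), with 8 false calls. The simulated noise was independent between libraries with the same spread in every group, and no other genes were changed. The real comparison called 51.7% of all genes, so the simulated false calls do not give the number in these data. The members, the partner lists, the markers and the tests were chosen with earlier results of these data known. Named genes are the 10 members, E2f1, the partners past the threshold with the largest changes in each list, and the 5 genes with the most similar profile among those with a mean of at least 50; Ddx3y was chosen after its values had been seen. Alternatives covered the pseudocount (8), the filter (none, or a mean of at least 500), quantile normalization, equal totals, a replicate block, a fit of only the groups compared, a 2-fold rule and each library left out. Positions are 1-based; 10977 of 11208 identifiers matched GENCODE M21. Promoter sequences are from RefSeq (GRCm38.p6).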

Additional observations from a re-analysis of the deposited data

Results flagged for a closer look

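These are the genes whose change over time differed between the lines or stimuli by a test of the difference itself (limma, adjusted over all genes; log2 values). E2F1 minus EV under doxycycline at 6 h: Asf1a differed by 0.599, Asf1b by 2.074, Chaf1a by 2.035, Chaf1b by 2.324, Hells by 2.083, Uhrf1 by 2.276, Dnmt1 by 1.248, Ezh2 by 2.171, Suv39h1 by 0.991 and Atad2 by 3.106. At 12 h the same difference was 0.805 for Asf1a, 4.316 for Asf1b, 2.86 for Chaf1a, 2.743 for Chaf1b, 2.536 for Hells, 3.172 for Uhrf1, 2.066 for Dnmt1, 2.974 for Ezh2, 1.958 for Suv39h1 and 3.994 for Atad2. Every one of the 10 was thus larger at 12 h than at 6 h, and the EV line's own mean was lower at 12 h than at 6 h for each. In these differences the 2 lines have separate 0 h libraries, and the adjusted p ran from 2.43e-10 (Ezh2 at 12 h) to 0.0251 (Asf1a at 6 h).

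E2F1 minus serum at 6 h was 2.07 for Asf1b, 1.553 for Chaf1a, 2.545 for Chaf1b, 1.111 for Hells, 1.64 for Uhrf1, 0.989 for Dnmt1, 2.246 for Ezh2, 0.851 for Suv39h1 and 3.104 for Atad2, with adjusted p from 6.82e-10 (Ezh2) to 0.00536 (Suv39h1). At 12 h it was -1.04 for Chaf1b (adjusted p 0.018), -1.474 for Hells (0.000201) and 1.092 for Ezh2 (6.28e-06). Hells and Chaf1b thus went from a larger change under E2F1 at 6 h to a smaller one at 12 h, while Ezh2 stayed larger at both times. Line and stimulus cannot be told apart in these differences.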

How the results depend on the processing

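All 10 genes stayed called higher in the E2F1 line at 6 h and 12 h and under serum at 12 h, and E2F1 minus EV stayed called for all 10 at 12 h, under every pseudocount, filter, scaling, block and left-out library. Single libraries and 2 per group limit the rest. In a fit restricted to the groups of a comparison, the E2F1 2 h count was 3 higher instead of 0, EV doxycycline 12 h 0 lower instead of 8, serum 2 h 2 lower instead of 4, serum 6 h 0 higher instead of 1 and 0 lower instead of 2, and the starved lines 1 instead of 5; the cause was not tested. The 2-fold rule, which is stricter by construction, gave 4 lower for EV doxycycline 12 h, 0 higher and 0 lower for serum 2 h and 6 h, 0 for the starved lines and 1 for E2F1 12 h against 6 h. Equal totals gave 0 higher and 8 lower for serum 2 h and 0 higher for serum 6 h. Quantile normalization gave 0 higher for serum 2 h, 1 lower for serum 6 h and 2 higher for E2F1 minus serum at 12 h. Levels without the 0 h libraries gave 3 higher and 1 lower there, where 3739 and 3402 of all 11208 genes were called. Reversed in sign were Asf1a at serum 2 h with equal totals (-0.34) and Dnmt1 at serum 2 h with quantile normalization (-0.357) and equal totals (-0.352).

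With each library left out in turn, counts ran from 0 to 1 higher (EV doxycycline 2 h), 0 to 1 lower (EV doxycycline 6 h), 0 to 8 lower (EV doxycycline 12 h), 0 to 2 higher and 1 to 6 lower (serum 2 h), 0 to 4 higher and 0 to 3 lower (serum 6 h), 1 to 2 higher and 1 to 5 lower (E2F1 minus serum, 12 h), 0 to 6 higher (starved lines) and 1 to 3 higher (E2F1 12 h against 6 h). Where this left 1 library in a group, that library was assumed to vary like the other groups.

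Equal totals moved the median of all genes by -0.375 at serum 2 h and -0.214 at serum 6 h, and quantile normalization by -0.122 at E2F1 6 h, where the share of higher among called genes went to 41%. Over all genes, the E2F1 2 h count of 208 was 330 under quantile normalization and 596 in the restricted fit. EV doxycycline counts of 824, 15 and 467 became 400, 1 and 77 there, and the starved lines' 1684 became 652. E2F1 minus EV at 2 h, 16 genes, gave 5 with the stricter filter, 51 with quantile normalization and 45 in the restricted fit.

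Replicate numbers were not treated as pairing the libraries, since the correlation of deviations was over 0.1 in 18 of 55 pairs of groups and under -0.1 in 6 (median 0.031). It was over 0.1, however, in every pair of the 0 h, 6 h and 12 h doxycycline groups within a line, from 0.303 to 0.455 in the EV line and from 0.142 to 0.357 in the E2F1 line. With the replicate block, member counts were unchanged for every comparison except the starved lines, 6 instead of 5 (4 with a block within each line), and E2F1 minus EV at 2 h gave 33 genes instead of 16 (45 within each line).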
